A study of Mus musculus with 12 samples.

Results

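The nuclear-encoded genes of the mitochondrial respiratory chain were followed in thioglycollate-elicited peritoneal exudate cells (PECs) of mice. Members were all listed genes whose symbol begins with Nduf followed by A, B, C, S or V and a number, is Sdha, Sdhb, Sdhc or Sdhd, or begins with Uqcr, Cox4 to Cox8 or Atp5. The rule uses symbols and no measured value. It found 77 of 12850 listed genes, 35 in complex I, 4 in complex II, 7 in complex III, 15 in complex IV and 16 in complex V. Ndufa4, named for complex I but now placed with cytochrome c oxidase, was counted in complex IV. Of the symbols that RefSeq gives for the rule, Cox4i2, Cox7b2, Cox8b, Cox8c, Ndufa4l2, Ndufb1 and Uqcr11 were not listed and are not analysed here.

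The 12 libraries came from C57BL/6 mice of both genotypes, WT and the Zc3h12a S513A/S513A knock-in, a germline point mutation that removes a phosphorylated serine from the endonuclease Regnase-1. All are labelled C57BL/6, and the study's methods name C57BL/6JJcl for WT mice and C57BL/6J eggs for the making of the knock-in, so substrain and genotype cannot be told apart from these sources. PECs were taken 3.5 days after intraperitoneal thioglycollate, cultured, and left without LPS (0 hr) or given 100 ng/ml LPS for 4 or 8 hr, with 2 libraries for each genotype and time. The mutation was carried by every cell of the S513A mice and not by a single cell type, and read counts cannot show the changed base. Zc3h12a itself averaged 5.17 log2 CPM at 0 hr, 7.96 at 4 hr and 6.95 at 8 hr over the 4 libraries of each time. Neither the age of the mice nor whether a replicate was a separate animal is given in the sources used here, so p-values measure only the spread between these libraries, which may be technical. PECs at this time are mostly macrophages: the 6 macrophage markers (Adgre1, Cd68, Csf1r, Lyz2, Itgam and Mertk) were all listed and summed to between 16066 and 26293 CPM (reads scaled to a common library size). Of the 7 neutrophil markers, 3 were listed, Mmp8, S100a8 and Camp, with a sum of 362 to 745 CPM. Summed B cell, eosinophil, mast cell and mesothelial markers reached at most 8.87, 18.5, 1.81 and 1.32 CPM, and no T cell, erythroid or muscle marker was listed. The lowest macrophage and neutrophil sums were both in S513A at 8 hr (16066 and 21551 CPM, and 362 and 439 CPM). Both neutrophil values lay below all others, but only 1 macrophage value did. The other lay above the lowest of WT at 0 hr (20506 CPM) and 4 hr (18685 CPM) and of S513A at 4 hr (20742 CPM). Single markers did not all follow the sums. From 0 to 8 hr in S513A, 2 of 6 macrophage markers were higher and 2 lower (limma, adjusted p under 0.05). Of the 3 neutrophil markers 1 was higher and 1 lower, and the median log2 fold changes were -0.12 and -0.02. Of all genes tested, 20.9% were higher and 19.0% lower. The part of these sums in the results was not tested. In bulk RNA, fewer cells of a type and less RNA per cell cannot be told apart. Libraries held 9525979 to 12439960 reads over the listed genes, and the members took between 0.508% and 1.13% of them.

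The respiratory chain passes electrons from NADH (complex I) and succinate (complex II) through ubiquinone, complex III and cytochrome c to oxygen at complex IV, and the proton gradient it builds drives ATP synthase, complex V. Most subunits are encoded in the nucleus and a few in mitochondrial DNA, so that the complexes need products of both genomes. In macrophages LPS is known to shift metabolism toward glycolysis, with succinate oxidation at complex II and reverse electron flow to complex I tied to the output of reactive oxygen species and interleukin-1β. Many of these genes lack a TATA box and carry sites for NRF1, ETS factors such as GABP, and YY1, proteins known for coordinating respiratory genes.

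Promoter windows of RefSeq (build GRCm38.p6, 250 bases before to 50 after the start) were found for 65 of the 77 members in 70 windows. They are shown as a description, and any link of motifs to the movements described below was not tested. Searched on both strands, the NRF1 core (GCGCATGCG) stood in 7 of 70 member windows (10.0%) against 1.75% of all 32851 windows. The YY1 motif (AAGATGGC) stood in 10 (14.3%) against 2.75%. Of the 10 genes with it, 7 belong to complex I and 3 to complex V, and in all 7 it began between 22 and 38 bases after the start. The ETS motif (CCGGAAG) stood in 15 (21.4%) against 8.86%, the estrogen-related receptor element (TCAAGGTCA) in 2 (2.86%) against 0.423%, and the Sp1 motif (GGGCGG) in 28 (40.0%) against 35.7%. Counted by gene and against the listed genes only, the shares were 10.8% against 4.18% for NRF1, 15.4% against 5.42% for YY1, 23.1% against 20.5% for ETS, 3.08% against 0.301% for the estrogen-related receptor element and 41.5% against 67.4% for Sp1. The NRF1 core is nearly its own reverse complement, so that 1 site can be read on both strands, as in Cox6a1. Matches to different motifs do not overlap in the stretches shown. A match is a run of letters and not a bound site. The 250 bases before the start of Cox6a1 (chr5:115348959-115349208, minus strand), the ubiquitous isoform of a small complex IV subunit, and of Sdhb (chr4:140961021-140961270, plus strand), the iron-sulfur subunit of complex II, and the 120 bases before the start of Cox5a (chr9:57521112-57521231, plus strand), Cox7a2l (chr17:83514334-83514453, minus strand) and Atp5s (chr12:69724825-69724944, plus strand) are given 5′ to 3′ with motif matches in capitals.
Cox6a1: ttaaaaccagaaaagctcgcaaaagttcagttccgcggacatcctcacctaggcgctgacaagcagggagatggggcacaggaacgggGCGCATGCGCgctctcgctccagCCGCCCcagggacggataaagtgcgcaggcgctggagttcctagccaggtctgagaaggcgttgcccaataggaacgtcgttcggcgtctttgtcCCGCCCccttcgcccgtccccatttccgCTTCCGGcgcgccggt
Sdhb: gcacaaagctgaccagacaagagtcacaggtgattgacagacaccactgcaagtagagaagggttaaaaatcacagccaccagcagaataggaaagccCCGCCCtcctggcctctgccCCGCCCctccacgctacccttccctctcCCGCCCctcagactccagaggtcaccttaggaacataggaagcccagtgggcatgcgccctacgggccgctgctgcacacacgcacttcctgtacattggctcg
Cox5a: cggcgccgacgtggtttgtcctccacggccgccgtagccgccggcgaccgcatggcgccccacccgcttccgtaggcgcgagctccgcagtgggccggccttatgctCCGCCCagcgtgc
Cox7a2l: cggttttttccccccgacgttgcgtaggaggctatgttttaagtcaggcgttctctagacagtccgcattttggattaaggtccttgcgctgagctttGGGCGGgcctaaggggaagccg
Atp5s: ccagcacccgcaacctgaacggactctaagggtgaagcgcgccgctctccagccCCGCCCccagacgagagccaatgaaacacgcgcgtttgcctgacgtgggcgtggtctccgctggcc
The Cox6a1 stretch holds an NRF1 core whose first base lies 162 bases before the start, an ETS motif 16 bases before it and Sp1 motifs at 139 and 44 bases. The Sdhb stretch holds Sp1 motifs at 152, 132 and 104 bases, and Cox5a, Cox7a2l and Atp5s each hold 1 Sp1 motif in the stretch shown, 13, 22 and 66 bases before the start.

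Without LPS, the members were among the more abundant transcripts for their length. Levels between genes are given only as log2 CPM per kilobase of the longest annotated transcript, as the mean of the 4 libraries at 0 hr. The median tested member stood at 5.73 in complex I, 6.25 in complex II, 6.15 in complex III, 7.00 in complex IV and 6.85 in complex V, against 2.73 over all genes tested. Complexes IV and V were thus the highest at their medians and remained so with the median transcript length, at 7.97 and 7.86, with complex I lowest at 6.57.

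The highest member of each complex was Ndufa1 in complex I (7.71 ± 0.70, SD, n = 4 libraries), an accessory subunit encoded on the X chromosome, Sdhb in complex II (6.91 ± 0.19), Uqcrb in complex III (7.36 ± 0.59), a ubiquinol-binding accessory subunit, Cox4i1 in complex IV (8.87 ± 0.36), and Atp5b in complex V (8.51 ± 0.12), the catalytic β subunit of ATP synthase. The lowest tested members were Ndufb2 (3.29 ± 0.58), Sdhc (5.29 ± 0.15), Uqcrc1 (5.56 ± 0.08), Cox6a2 (-0.33 ± 0.44) and Atp5s (1.42 ± 0.27), the last an ATP synthase coupling factor and not a subunit of the enzyme. These ends depend on the transcript length used: Ndufb2 has a longest transcript of 4371 bases, and by the median transcript the lowest of complex I was Ndufa8 at 4.25 and the highest Ndufb8 at 8.29.

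**Figure D1:**
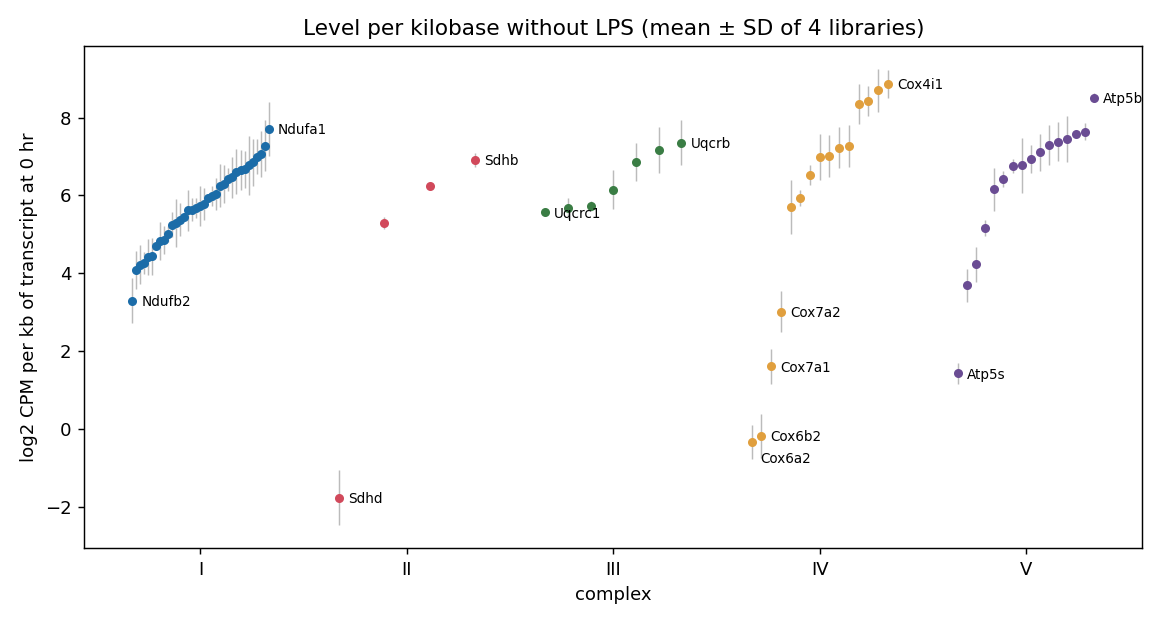
Level per kilobase of the longest transcript at 0 hr (log2 CPM per kb, y axis) for the 77 members, ordered within complexes I to V (x axis). Points are means and bars SDs of 4 libraries, WT and S513A together. Sdhd, Cox6a2, Cox6b2, Cox7a1, Cox7a2 and Atp5s lie at 3.01 or below and the other members from 3.29 (Ndufb2) to 8.87 (Cox4i1).

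The paired isoforms of complex IV were far apart. Cox6a1 stood at 8.43 ± 0.39 (SD, n = 4) and Cox6a2, the heart and muscle isoform, at -0.33 ± 0.44, with 3 to 13 reads per library. Cox6b1 stood at 8.35 ± 0.52 and its testis isoform Cox6b2 at -0.18 ± 0.56, with 1 to 8 reads. Cox4i1, Cox8a (8.70 ± 0.55), Cox6a1 and Cox6b1 led the complex. Differences among them were not tested, and their SDs come from the same 4 libraries. Of the Cox7a family, the supercomplex factor Cox7a2l was the highest at 6.52 ± 0.26, the ubiquitous Cox7a2 stood at 3.01 ± 0.54 with 42 to 87 reads, and the muscle isoform Cox7a1 lower still, with 7 to 25 reads. Ndufa4 stood at 6.99 ± 0.60. The 3 genes that encode the same mature c subunit of ATP synthase stood at 7.64 ± 0.21 (Atp5g3), 6.93 ± 0.36 (Atp5g2) and 3.68 ± 0.42 (Atp5g1).

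One subunit was nearly without reads. Sdhd, the membrane anchor that complex II needs beside Sdhc, had 1 to 7 reads in each library, against 923 to 1632 for Sdhc, and it failed the filter on low values in company with Cox6b2. No other annotated transcript matched Sdhd or Cox7a2 over 50% or more of its length at 95% identity or more, and why these genes had few reads was not tested. Both are known to be broadly expressed, so how well their few reads measure their expression is uncertain, as is the place of Cox7a2 in its family and its call in WT below. Near-identical copies were annotated for 11 members, among them Atp5l with 9, Atp5h and Uqcrb with 3 each and Atp5g2 with 2, so their counts may be shared with those copies. Separately, 28 members overlap a gene on the other strand by the bounds of the genes. The reads were counted without strand, so where exons overlap, reads of both genes cannot be told apart. Overlap of exons was not examined. The 28 include Ndufs1, which overlaps Eef1b2, and Sdha, which overlaps Gm16125.

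The members moved as a block between libraries, and replicates of one group differed widely. Each member's log2 CPM was set against its own mean over the 12 libraries, and the median over the 75 members that passed the filter (at least 1 CPM in at least 2 libraries) was taken for each library. At 0 hr the median was -0.51 and -0.01 in WT and 0.53 and 0.32 in S513A. At 4 hr it was 0.18 and -0.38 in WT and 0.03 and 0.54 in S513A. At 8 hr it was 0.15 and 0.26 in WT and -0.97 and -0.10 in S513A.

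The S513A library at 8 hr numbered 1 stood apart from the others: it was the lowest of the 12 for 62 of the 75 members, and its replicate was higher for 74 of 75, by a median of 0.86. The WT pair at 4 hr differed by 0.58 in the other order, with replicate 2 lower for all 75 members. The pooled SD of the library medians within groups was 0.37.

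**Figure D2:**
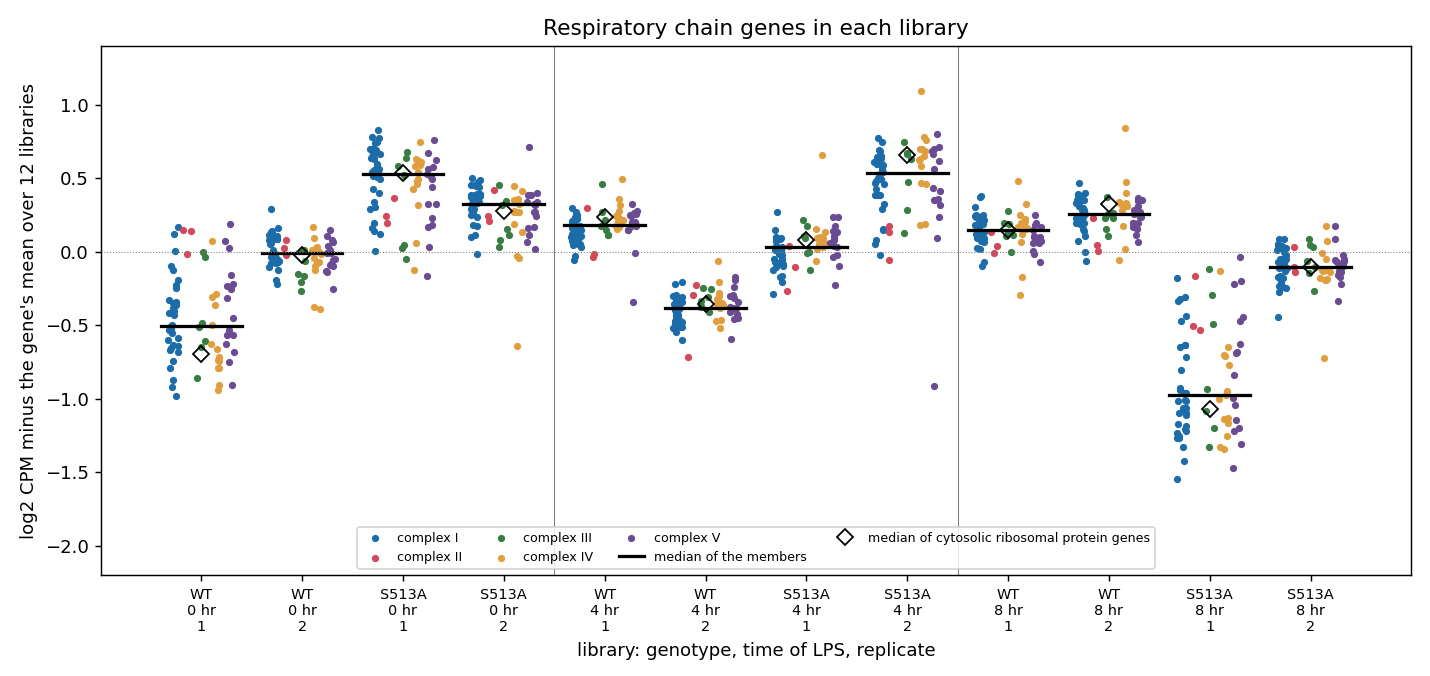
Log2 CPM of each of the 75 tested members minus its mean over all 12 libraries (y axis), by library (x axis) and coloured by complex. Bars are the medians of the members and diamonds the medians of 82 cytosolic ribosomal protein genes. Both are lowest in S513A 8 hr replicate 1 (-0.97 and -1.07) and highest in S513A 4 hr replicate 2 (0.54 and 0.66).

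Other short, abundant transcripts moved with them. The 82 tested cytosolic ribosomal protein genes had medians of -0.69 and -0.02 in WT at 0 hr, 0.54 and 0.28 in S513A at 0 hr, and -1.07 and -0.11 in S513A at 8 hr. The median of 4201 genes that are neither, with a longest transcript of 619 to 2810 bases, stayed between -0.19 and 0.14. Those bounds hold the middle of the members' lengths, whose median was 1046 bases. The set was not matched to the members' distribution of lengths or to their coding lengths. The median of all genes tested stayed between -0.03 and 0.04. The 11 tested subunits encoded in mitochondrial DNA stayed between -0.19 and 0.16. In the same libraries, the deviation of genes from their means correlated with transcript length, most positively in S513A 8 hr replicate 1 (r = 0.35 across genes, which are not replicates) and WT 4 hr replicate 2 (r = 0.29), and most negatively in S513A 4 hr replicate 2 (r = -0.25) and WT 8 hr replicate 2 (r = -0.24). Once a trend with the length of the longest transcript and GC content was taken out of each library, the members' medians ran from -0.49 to 0.33. Coding length was not part of that trend. The part of RNA quality or library preparation in this block movement was not tested.

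Members did not take part equally. The highest of the 12 libraries lay above the lowest by a median of 1.61 log2 units over the 75 members, by 2.29 for Ndufb2, 2.23 for Atp5e and 2.19 for Ndufa1, and by 0.37 for Atp5a1, 0.42 for Uqcrc1, 0.44 for Sdha, 0.46 for Ndufs1 and 0.57 for Atp5b. The steady genes encode large catalytic or core subunits: Atp5a1 and Atp5b form the head of ATP synthase, Uqcrc1 is a core protein of complex III, Sdha the flavoprotein that oxidises succinate, and Ndufs1 a core subunit of complex I. All 8 members with the smallest ranges have a coding sequence of at least 1359 bases.

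Across the 75 members, range and log2 coding length had a Pearson r of -0.80 and a Spearman rho of -0.76, and the SD within groups had a rho of -0.79 with coding length (given as descriptions across genes that share libraries). Over 11206 genes tested with a coding sequence, the same rho values were -0.06 for range, which there includes the response to LPS, and -0.10 for the SD within groups. The dependence on coding length was not particular to the members: the gap between the 2 S513A libraries at 8 hr had a rho of -0.69 with coding length over the members and -0.52 over all these genes, and the median SD within groups of genes that are no members was 0.342 under 300 coding bases and 0.171 at 1200 or more, against 0.454 and 0.143 for members. With the longest transcript in place of the coding sequence the members' rho for range was -0.35. The 18 catalytic or core subunits, grouped after the values were seen, had a median range of 0.76 against 1.67 for the other 57. Their median coding lengths were 870 and 372 bases, so this grouping and coding length cannot be told apart here. Exceptions ran both ways: Cox5a and Atp5d, with 438 and 504 coding bases, had ranges of 0.71 and 0.69, while Ndufv3, an accessory subunit of complex I with a longest coding sequence of 1404 bases, had 1.90.

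**Figure D3:**
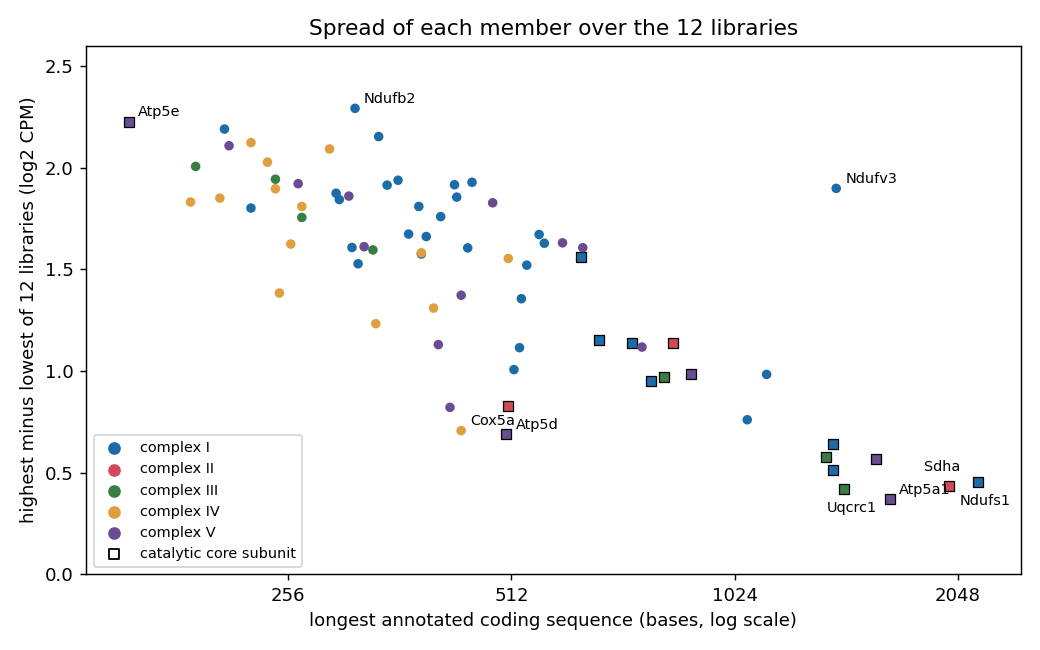
Highest minus lowest log2 CPM over the 12 libraries (y axis) against the longest annotated coding sequence (x axis, log scale) for the 75 tested members, coloured by complex, with squares for catalytic or core subunits. Atp5e, the shortest-coding core subunit, is at 2.23 and Ndufs1, the longest-coding, at 0.46, while Cox5a (0.71) and Ndufv3 (1.90) lie away from members of like length.

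At 4 hr of LPS, with both genotypes averaged, few members were called while much of the transcriptome was. The median SE was 0.22 for members and 0.13 for all genes, here and at 8 hr. A change of like size was therefore less readily called in members. No member passed the threshold (Benjamini-Hochberg adjusted p under 0.05 in limma over 11885 genes) as higher, against 29.1% of all genes tested, and 4 of 75 were lower, against 26.7%. At an unadjusted p under 0.05 there were 8 members (10.7%), against 60.5% of all genes, and limma with voom weights called the same 4. The members' median log2 fold change was 0.02, as was that of all genes. Without any 1 of WT 0 hr replicates 1 and 2, S513A 0 hr replicate 2 and S513A 4 hr replicate 1, 2 members were called, both lower. Without WT 4 hr replicate 2, the library low for all 75 members, 6 were called: Atp5b, Atp5g3, Cox5a and Uqcrfs1 higher, Atp5s and Sdha lower, and Ndufs1 and Sdhb were lost. The 4 that fell were Sdha and Sdhb of complex II, Ndufs1 of complex I and Atp5s. The cells did respond: Il1b, the cytokine gene of interleukin-1β, rose by 8.31 ± 0.20 (SE) log2 units, limma adjusted p = 2.02e-10.

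Complex II thus had 2 of its 3 tested members lower at 4 hr. Sdha read 7.77 and 7.71 in WT and 7.83 and 7.84 in S513A at 0 hr, 7.62 and 7.40 in WT and 7.53 and 7.58 in S513A at 4 hr, and 7.67 and 7.64 in WT and 7.47 and 7.53 in S513A at 8 hr (log2 CPM). All 8 LPS libraries lay below all 4 libraries without it. The log2 fold change was -0.26 ± 0.07 (SE) at 4 hr (95% interval -0.41 to -0.10, limma adjusted p = 0.00969) and -0.21 ± 0.07 at 8 hr (adjusted p = 0.0309). The 4 hr call stood in all 26 other settings tried, with folds from -0.63 to -0.20, and the 8 hr call in 18 of 26, being lost when any 1 of the 8 libraries compared was left out (adjusted p from 0.0506 to 0.0969).

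Sdhb, which carries the iron-sulfur clusters, read 7.12 and 7.00 in WT and 7.34 and 7.40 in S513A at 0 hr, and 6.94 and 6.26 in WT and 6.71 and 7.15 in S513A at 4 hr. These groups overlapped, since the second S513A library at 4 hr lay above the WT libraries at 0 hr. The fold change of -0.45 ± 0.16 (limma adjusted p = 0.0362) was lost in 9 of 26 other settings. At 8 hr it was -0.27 ± 0.16 (adjusted p = 0.211). Sdhc, an anchor that binds ubiquinone, had -0.07 ± 0.13 at 4 hr and -0.27 ± 0.13 at 8 hr, both short of the threshold (adjusted p = 0.675 and 0.105).

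Ndufs1, the largest subunit of complex I, was 6.12 and 6.06 in WT and 6.10 and 6.19 in S513A at 0 hr, 5.93 and 5.74 in WT and 5.88 and 6.01 in S513A at 4 hr, and 5.86 and 5.89 in WT and 5.77 and 5.92 in S513A at 8 hr. The groups did not overlap at either time. It fell by 0.23 ± 0.08 log2 units at 4 hr (limma adjusted p = 0.0268) and by 0.26 ± 0.08 at 8 hr (adjusted p = 0.0198), calls that were lost in 7 and 5 of 26 other settings. Atp5s had the largest change, from 1.95 and 1.87 in WT and 2.09 and 2.48 in S513A to 1.42 and 1.17 in WT and 1.54 and 0.85 in S513A at 4 hr, with no overlap. Its fold change was -0.85 ± 0.18 (adjusted p = 0.00239), kept in all 25 settings that tested it, at 15 to 66 reads per library. At 8 hr Atp5s read 2.01 and 2.12 in WT and 1.73 and 1.94 in S513A, near its level without LPS (-0.15 ± 0.18, adjusted p = 0.553).

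By complex, median log2 fold changes at 4 hr were -0.08 in complex I, -0.26 in complex II, 0.07 in complex III, 0.16 in complex IV and 0.05 in complex V. Differences between complexes were not tested. Members were also read against each other, by taking the members' median out of each library: 8 members then stood higher in all 4 libraries at 4 hr than in all 4 at 0 hr (12.6% of all genes tested did on that scale) and 4 stood lower (9.43%). Of the 8, 4 were complex IV genes (Cox5b, Cox6b1, Cox7c and Cox8a) and 3 complex I genes (Ndufb6, Ndufs4 and Ndufs5), with Atp5j of complex V. The 4 lower were Sdhb, Cox7a2l, Ndufs7 and Ndufs8. Both shares of the 75 lay below those of all genes. The scale takes the members' shared movement out of them and carries it, with the opposite sign, into other genes. The shares of all genes are therefore not a like background.

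**Figure D4:**
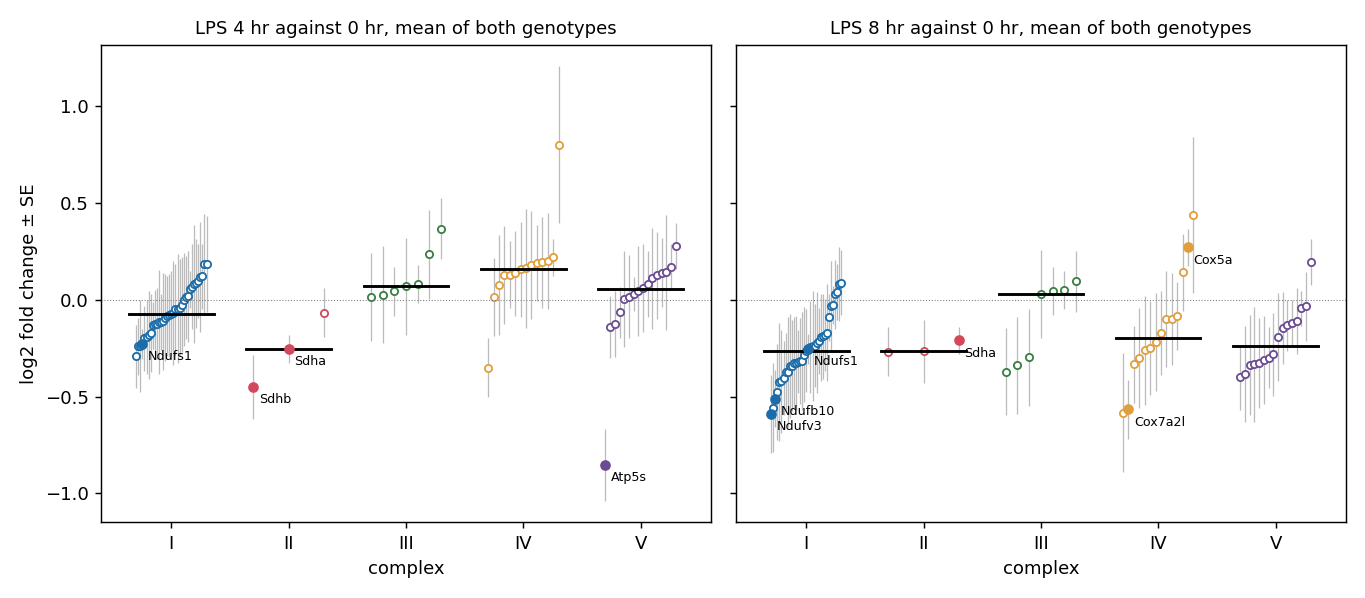
Log2 fold change at 4 hr (left) and 8 hr (right) of LPS against 0 hr, mean of both genotypes, for the 75 tested members ordered within each complex (x axis). Bars are SEs, filled and named points passed the threshold (limma, adjusted p under 0.05), and black lines are medians, which run from -0.26 to 0.16 at 4 hr and from -0.27 to 0.03 at 8 hr.

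At 8 hr of LPS, 1 of 75 members was higher (24.5% of all genes tested) and 5 were lower (21.6%). The median log2 fold change was -0.25, against 0.00 for all genes, and 63 of 75 fold changes were negative. The 5 lower were Cox7a2l, Ndufb10, Ndufv3, Ndufs1 and Sdha, and the 1 higher was Cox5a. Medians were -0.26 in complex I, -0.27 in complex II, 0.03 in complex III, -0.20 in complex IV and -0.24 in complex V. These counts rested on single libraries: without S513A 8 hr replicate 2, which leaves the low replicate 1 alone, 30 were lower and none higher, and without replicate 1, 2 were lower and 1 higher. Leaving out WT 0 hr replicate 2 or 1 of the S513A 0 hr or WT 8 hr libraries left 2, both lower. Total-read scaling and quantile normalization each gave 19 lower and none higher, and at 4 hr 16 and 11 lower. For these settings and for the fits without a library, the shares of all genes called are not given here. Total-read scaling moved the median of all genes to -0.24 at 4 hr and -0.17 at 8 hr, and the members' medians with it to -0.24 and -0.42, so that the sign of the members' median at 4 hr depends on the scaling.

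Cox7a2l, which helps join complexes III and IV into supercomplexes, was 6.47 and 6.49 in WT and 7.00 and 6.84 in S513A at 0 hr, and 6.22 and 6.41 in WT and 5.69 and 6.21 in S513A at 8 hr. The groups did not overlap. Its fold change of -0.57 ± 0.15 (95% interval -0.90 to -0.23, limma adjusted p = 0.0104) stood in all 26 other settings, from -0.77 to -0.44. Within genotypes it was -0.97 ± 0.21 in S513A (adjusted p = 0.00474) and -0.16 ± 0.21 in WT (adjusted p = 0.585), and the interaction was -0.81 ± 0.30 (adjusted p = 0.206).

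Cox5a, a matrix-facing subunit of complex IV, was the only member called higher. It read 6.67 and 6.56 in WT and 7.02 and 6.92 in S513A at 0 hr and 7.12 and 7.27 in WT and 6.82 and 7.03 in S513A at 8 hr, with overlap that came from the S513A libraries. The fold change was 0.27 ± 0.10 (limma adjusted p = 0.0406) and was lost in 13 of 26 other settings. Ndufb10, a membrane-arm accessory subunit, had -0.51 ± 0.15 (adjusted p = 0.0148), from 5.80 and 6.00 in WT and 6.45 and 6.34 in S513A to 5.83 and 5.89 in WT and 5.10 and 5.72 in S513A. Ndufv3 had -0.59 ± 0.20 (adjusted p = 0.0333), from 5.17 and 5.88 in WT and 6.29 and 6.05 in S513A to 5.68 and 5.82 in WT and 4.39 and 5.15 in S513A. For both, the WT libraries at 8 hr lay among those at 0 hr and the S513A libraries lay below their own.

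**Figure D5:**
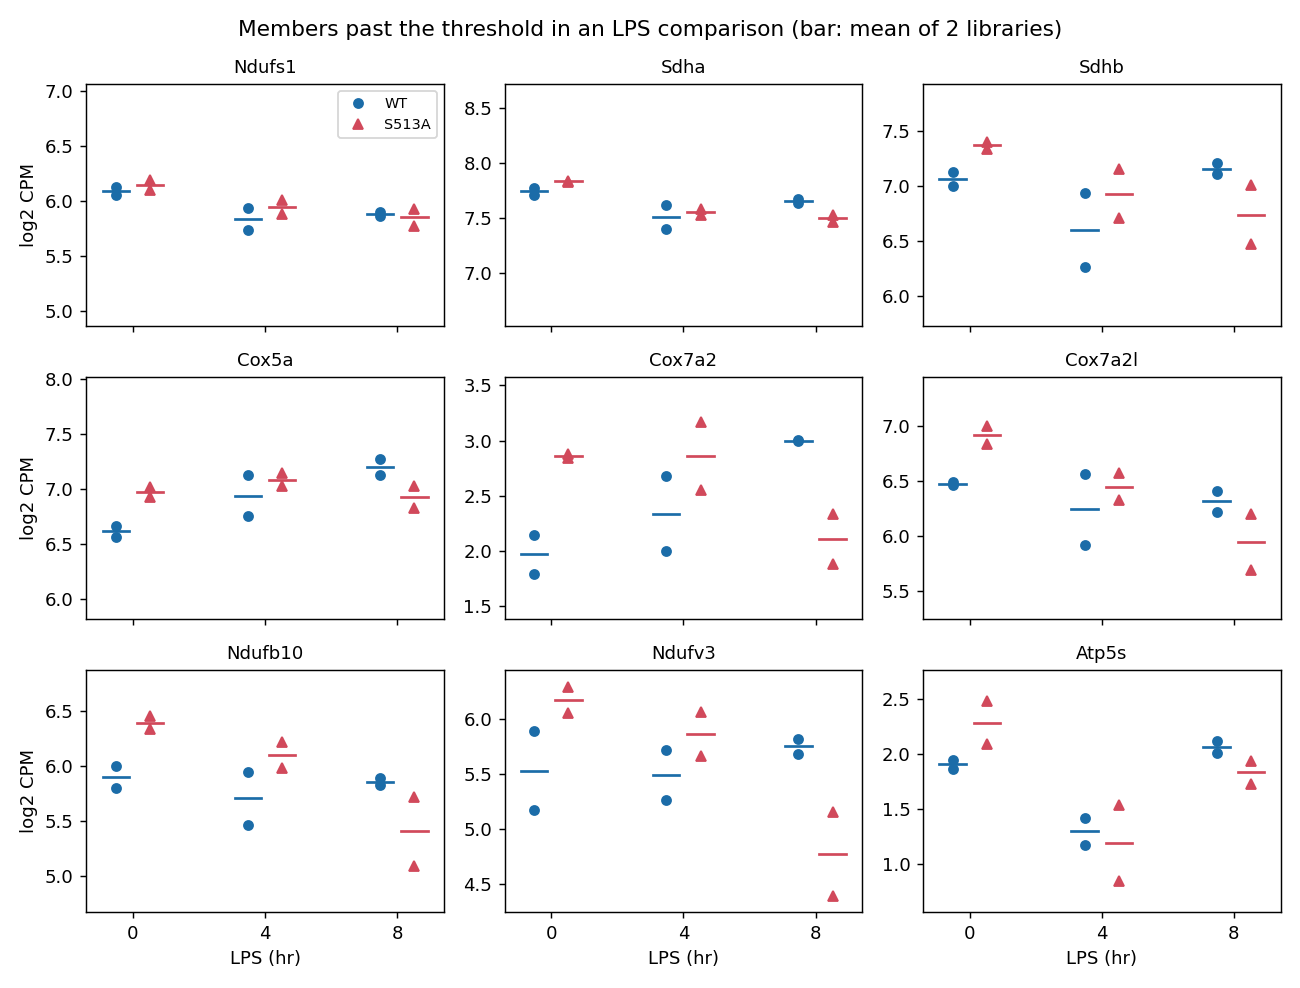
Log2 CPM (y axis, the same span in each panel) at 0, 4 and 8 hr of LPS (x axis) for 9 members that passed the threshold in an LPS comparison. Circles are WT and triangles S513A libraries, bars their means. Sdha and Ndufs1 were lower in all 8 LPS libraries than in all 4 without it, and Atp5s was lower at 4 hr and not at 8 hr.

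Against each other within libraries, 5 members stood higher in all libraries at 8 hr than at 0 hr (14.5% of all genes tested) and 3 lower (4.54%). The limit given at 4 hr for the shares of all genes holds here too. The higher were Uqcrfs1, the Rieske iron-sulfur protein of complex III, Ndufs4, Ndufs3, Atp5g1 and Cox6a1, and the lower were Ndufv3, Ndufb11 and Ndufs8, all of complex I. Ndufs4, an assembly-linked accessory subunit, was higher and Ndufs8, a core iron-sulfur subunit, lower on this scale at both times. From 4 to 8 hr, 1 member was higher (12.8% of all genes tested) and none lower (12.8%), and 3 reached an unadjusted p under 0.05. That member was Atp5s, at 0.71 ± 0.18 (limma adjusted p = 0.0173). With voom weights 1 member was called as well. Without S513A 8 hr replicate 2, 13 members were lower and Atp5s was not called. Without WT 4 hr replicate 2, 1 was higher and 3 lower, without WT 4 hr replicate 1, 2 were higher, without S513A 4 hr replicate 1, 1 was higher and 1 lower, and without S513A 4 hr replicate 2 or WT 8 hr replicate 2 none was called.

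Within genotypes, the members' medians at 8 hr had opposite signs. In WT, the median member was 0.47 higher at 8 hr than at 0 hr on the log2 scale and 2 were called higher (19.4% of all genes) and none lower (14.9%). In S513A the median member was 0.97 lower, none was called higher (20.9%) and 50 were called lower (19.0%). By complex, the 50 were 27 of 35 in complex I, 2 of 3 in complex II, 3 of 7 in complex III, 8 of 14 in complex IV and 10 of 16 in complex V. The largest falls were those of Ndufv3 (-1.40 ± 0.28, limma adjusted p = 0.00289) and Ndufa1 (-1.39 ± 0.40, adjusted p = 0.0185), while Atp5b had 0.02 ± 0.17. Cytosolic ribosomal protein genes had medians of the same signs, -0.99 in S513A with 54 of 82 lower, and 0.61 in WT with 3 higher. Averaged over genotypes, 3 of the 82 were higher at 4 hr, and 1 was higher and 1 lower at 8 hr.

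The count of 50 depended on single S513A libraries, and the shares of all genes called in the other fits below are not given here. Without S513A 8 hr replicate 1, the library that stood apart, 3 members were called lower (Cox7a2l, Ndufb10 and Ndufv3), at a median of -0.52. Without S513A 0 hr replicate 1 there were also 3, at -0.86, without S513A 0 hr replicate 2 there were 14, at -1.07, and without S513A 8 hr replicate 2 there were 60, at -1.39. With the trend in transcript length and GC taken out, 53 were called, 47 of them among the 50, at a median of -0.59. That trend used the longest transcript and not the coding sequence, so a trend with coding length may remain. In WT the 2 called were Cox5a, at 0.58 ± 0.14 (limma adjusted p = 0.00712), and Cox7a2, at 1.03 ± 0.28 (adjusted p = 0.0151), which went from 1.79 and 2.15 to 3.00 and 2.99 in WT and from 2.84 and 2.88 to 1.87 and 2.33 in S513A. Without WT 8 hr replicate 2 no member was called in WT, and 1 was called without WT 0 hr replicate 1 or WT 8 hr replicate 1. Leaving out a single S513A 8 hr library gave 5 calls, and a single WT 4 hr library 7. Fitting only the WT libraries at those times gave 39.

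At 4 hr within WT, none of the members was called higher (22.6%) or lower (18.7%), with 4 at an unadjusted p under 0.05 and none called with voom weights. Within S513A at 4 hr none was higher (23.1%) and 2 were lower (20.2%), Sdha at -0.28 and Atp5s at -1.09. Without S513A 0 hr replicate 2 or S513A 4 hr replicate 2 neither was called. Leaving out a WT 4 hr library gave 3 calls, and any 1 of the other 8 libraries 1 call. In WT, 5 members were lower without replicate 1 at 4 hr, 4 were higher without replicate 2, and 1 was lower without either S513A 4 hr library.

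No member was called between the genotypes at any time. S513A libraries lay above WT at 0 hr for all 75 members by the fitted means, with a median of 0.68 (smallest limma adjusted p = 0.586, with 0.0337% of all genes called). At an unadjusted p under 0.05 there were 36 of 75 members, against 7.98% of all genes and 51.2% of the cytosolic ribosomal protein genes. At 4 hr the median was 0.39 (none under 0.05 unadjusted, 0.0168% of all genes called). At 8 hr S513A lay below for all 75, with a median of -0.78 (smallest limma adjusted p = 0.395, with 0.0337% of all genes called). Here 47 members (62.7%) had an unadjusted p under 0.05, against 12.5% of all genes and 87.8% of the ribosomal protein genes. Averaged over times it was 0.10 (none under 0.05 unadjusted, 0.0673% of all genes called). With voom weights none was called in these comparisons either, and 31 were higher at 0 hr when only those 4 libraries were fitted. The share of all genes called in that last fit is not given here.

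The interaction, the difference between the genotypes in the response to LPS, had a member median of -0.29 at 4 hr and -1.48 at 8 hr, against -0.03 and 0.01 for all genes. No member and no other gene was called at either time (0.0% and 0.0%), with a smallest limma adjusted p among members of 0.193 at 8 hr. At an unadjusted p under 0.05 there were 63 of 75 members at 8 hr (84.0%), against 20.2% of all genes and 96.3% of the ribosomal protein genes, whose median was -1.53, and no member at 4 hr. At 8 hr the medians were -1.52 in complex I, -0.62 in complex II, -1.58 in complex III, -1.54 in complex IV and -1.23 in complex V. Without S513A 8 hr replicate 2, 50 members were called, and without replicate 1 none, at a median of -0.99. With transcript length and GC taken out the median was -0.67. The shares of all genes called in these other fits are not given here.

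In the libraries themselves, 52 of 75 members were higher in both WT libraries at 8 hr than in both at 0 hr and lower in both S513A libraries at 8 hr than in both at 0 hr, against 7.11% of all genes tested. None did the reverse (4.81%). At 4 hr none moved opposite ways in either order (0.269% and 0.261%). The 52 included 24 of complex I, 1 of complex II (Sdhc), 5 of complex III, 10 of complex IV and 12 of complex V. By coding length the 52 were 35 of 43 members under 450 bases and 11 of 16 from 450 to under 750. Above that they were 5 of 7 from 750 to under 1200 bases and 1 of 9 at 1200 or more. Of 82 cytosolic ribosomal protein genes 67 showed the pattern. Of 658 other genes with under 450 coding bases 30.6% showed it, and 15.05%, 6.96% and 1.23% in the longer ranges in turn. With 2 libraries a group, the genotype and the S513A library that stood apart cannot be told apart.

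The rest of the pathway was read from lists of other mitochondrial genes, with both genotypes averaged unless stated. Beside the counts of each list stand the shares of all genes called, 29.1% higher and 26.7% lower at 4 hr and 24.5% and 21.6% at 8 hr, and no list was tested against them. The 11 tested subunits encoded in mitochondrial DNA, partners of the members in complexes I, III, IV and V, had no call at 4 or 8 hr of LPS with both genotypes averaged, with medians of 0.06 and -0.09. Within genotypes at 8 hr, 1 was higher and 1 lower in WT and 3 were lower in S513A. Of 48 tested assembly factors, 8 were higher and 7 lower at 4 hr and 7 and 4 at 8 hr, a difference from the members' shares that was not tested. Coa5, a complex IV assembly factor, rose from 7.08 ± 0.08 at 0 hr to 7.99 ± 0.10 at 4 hr and 8.17 ± 0.13 at 8 hr (log2 CPM, SD, n = 4), and Ndufaf7, a methyltransferase of complex I assembly, fell by 1.21 ± 0.16 at 4 hr (SE, limma adjusted p = 6.66e-05) and 1.14 ± 0.16 at 8 hr. Cycs, the somatic cytochrome c, rose by 0.83 ± 0.21 at 4 hr (adjusted p = 0.00519) and 0.78 ± 0.21 at 8 hr, with overlapping libraries.

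Other genes feed electrons to the chain by their own routes. Gpd2, mitochondrial glycerol-3-phosphate dehydrogenase, which reduces ubiquinone beside complexes I and II, rose from 5.43 ± 0.10 to 7.45 ± 0.12 at 4 hr and 7.34 ± 0.13 at 8 hr (SD, n = 4), at a limma adjusted p of 5.34e-09 at 4 hr. Prodh, proline dehydrogenase, fell by 0.88 ± 0.21 at 4 hr (adjusted p = 0.00469) and 0.68 ± 0.21 at 8 hr. Of 6 carrier and uncoupling genes, 1 was lower at 4 hr and 1 was higher and 2 lower at 8 hr. Ucp2, an inner membrane carrier, fell by 0.46 ± 0.08 and 0.70 ± 0.08, and Aox1, an aldehyde oxidase and not a carrier, rose by 1.47 ± 0.21 at 8 hr. In all, 2 of 7 genes of alternative electron entry were higher and 2 lower at 4 hr, and 2 and 3 at 8 hr.

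Of 20 tricarboxylic acid cycle and pyruvate dehydrogenase genes, 4 were higher and 8 lower at 4 hr and 3 and 6 at 8 hr. Pdk2, a kinase that inhibits pyruvate dehydrogenase, fell by 2.83 ± 0.19 at 4 hr (limma adjusted p = 3.13e-07) and by 1.54 ± 0.19 at 8 hr, Dld rose by 0.71 ± 0.11 at 4 hr and Cs, citrate synthase, by 0.45 ± 0.08 at 8 hr. Of 17 biogenesis regulators, 7 were higher and 4 lower at 4 hr and 4 higher at 8 hr. Esrra, the receptor that acts with PGC-1 coactivators on respiratory genes, rose by 0.78 ± 0.09 at 4 hr (adjusted p = 2.18e-05), and Ppargc1b, which encodes PGC-1β, fell by 1.38 ± 0.23 (adjusted p = 0.000389), while its relative Pprc1 led the rises at 8 hr at 0.68 ± 0.20. Of 17 outer membrane and import genes, 4 rose at 4 hr, led by Timm23 (0.84 ± 0.17), and 2 at 8 hr, led by Vdac3 (0.70 ± 0.13), and none fell.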

How the data were processed

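PolyA RNA of the 12 libraries was sequenced on a NextSeq 500. The authors aligned reads to mm10 with HISAT2, counted them per gene with featureCounts 1.6.3 and deposited log2 CPM values; the program and annotation behind these values are not given in the sources used here. The deposited log2 values equal the log2 of whole reads plus 0.5 over an effective library size, to within 0.00139 read. Genes reaching 1 CPM in 2 or more libraries (11885 of 12850, 75 of 77 members) were fitted with limma (version 3.58.1, R 4.3.3) as 6 group means over all 12 libraries, with a trended prior and Benjamini-Hochberg adjustment over all genes tested, at 0.05. Fold changes are differences of log2 CPM. The code was tested on simulated data. Lengths came from GENCODE, promoters from RefSeq, and copies from BLAST+ 2.17.0. Groups came from the labels. Precision is limited by 2 libraries a group, and depth was similar throughout. Genes named were the 2 largest rises and falls per complex among calls without overlap, the Sdh genes and isoforms, ends of the levels, and per list the largest rise and fall; other called members, range extremes and members set apart within libraries were named after their values were seen. Members, lists and rules were chosen with earlier results of these data known. The median within-library scale, the fit without WT 4 hr replicate 2 and S513A 8 hr replicate 1, and coding lengths were added after seeing the data.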

Additional observations from a re-analysis of the deposited data

Results flagged for a closer look

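Of the 75 tested members, 52 were higher in both WT libraries at 8 hr of LPS than in both at 0 hr, and lower in both S513A libraries at 8 hr than in both at 0 hr, while no member did the reverse. Over all genes tested the shares were 7.11% and 4.81%. The pattern was not particular to the members: 81.7% of cytosolic ribosomal protein genes and 30.6% of other genes with under 450 coding bases showed it. At like coding length the members' share was the higher in each range, a difference that was not tested. It was 81.4% against 30.6% under 450 bases and 68.75% against 15.05% from 450 to under 750. From 750 to under 1200 bases it was 71.4% against 6.96%, and at 1200 or more 11.1% against 1.23%. The 52 members were listed for this difference between the genotypes. This count does not test the difference, and the interaction in limma called none of the members (smallest adjusted p = 0.193). S513A 8 hr replicate 1 was the lowest of the 12 libraries for 62 members.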

How the results depend on the processing

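No call of the main fit changed sign under any setting tried, though in S513A at 8 hr only the named members were checked. Members without a main call were not checked for this, and directions were less stable there. In WT at 4 hr, the members' median ran from -0.14 to 0.44 when 1 library was left out. The number of members called depended on scaling and on single libraries. Main counts were 4 at 4 hr, 6 at 8 hr, 1 from 4 to 8 hr, 0 and 2 in WT at 4 and 8 hr, and 2 and 50 in S513A. Total-read scaling gave 16 at 4 hr, 19 at 8 hr, 7 and 4 in WT and 7 in S513A at 4 hr, and quantile normalization 11, 19, 4, 4 and 7. With the length and GC trend removed these were 10, 20, 9, 5 and 8, with 2 from 4 to 8 hr, and medians of -0.59 (S513A at 8 hr), -0.36 (S513A against WT at 8 hr) and -0.67 (interaction at 8 hr). With that and the replicate block they were 10, 20, 8, 5 and 8, with 3 from 4 to 8 hr and the same medians. Without the libraries of strongest length trend there were 9 at 4 hr, 4 from 4 to 8 hr, 11 and 24 in WT, 6 and 12 in S513A, and medians of -0.52, -0.31 and -0.99. In S513A at 4 hr, 1 was called under the stricter filter, the replicate block, the block within genotype and the prior without a trend, which gave 27 at 8 hr. The stricter filter left 0 from 4 to 8 hr. Fitting only the libraries compared gave 39 in WT at 8 hr and 31 for S513A against WT at 0 hr. The replicate block moved no other count by over 1.5 times. Same-numbered libraries had correlations from -0.41 to 0.42, and not every pair passed 0.1, so the numbers were not taken to pair samples; the 3 pairs within S513A were all positive (0.09 to 0.42), and whether a number marks 1 animal is not given in the sources used here. The cause of these shifts was not tested, beyond fewer samples or genes where the setting leaves them out. Shares of all genes called under each setting are not given here, so whether the shifts were particular to the members cannot be told. Leaving out 1 library at a time gave 2 to 6 members called at 4 hr (median -0.11 to 0.15), 2 to 30 at 8 hr (-0.45 to -0.03), 0 to 13 from 4 to 8 hr (-0.46 to -0.03), 0 to 5 (-0.14 to 0.44) and 0 to 7 (0.21 to 0.71) in WT, and 0 to 3 (-0.38 to 0.14) and 3 to 60 (-1.39 to -0.52) in S513A. For S513A against WT it gave 0 called, with medians of 0.41 to 0.95 at 0 hr, 0.07 to 0.67 at 4 hr, -1.22 to -0.31 at 8 hr and -0.04 to 0.24 averaged. The interaction had 0 called at 4 hr (-0.57 to 0.01) and 0 to 50 at 8 hr (-1.95 to -0.99). A group left with 1 library was assumed to vary like the others. With 2 libraries a group, the median SE of a member was 0.22 for LPS, 0.31 within a genotype and 0.44 for the interaction. Over all genes tested it was 0.13, 0.18 and 0.26. Sdhd and Cox6b2 had too few reads to test.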
